A study of Arabidopsis thaliana with 12 samples.

Results

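Nuclear genes of plastid ribosomal proteins were followed on arrays of the Arabidopsis thaliana mutant psah2 and of the wild type (WT). The members were the probes annotated with exactly 1 gene, that gene being RPL17 (AT3G54210), RPL5 (AT4G01310), RPL29 (AT5G65220), RPS10 (AT3G13120) or RPS6 (AT1G64510). This gave 5 probes of 3439, 1 for each gene, and 5 genes of the 689 that had a probe of their own, with 3 in the large and 2 in the small ribosomal subunit. No probe annotated with several genes held one of these loci. The RefSeq table lists the 5 loci without a protein name, so the names RPL17, RPL5, RPL29, RPS10 and RPS6 are those of the selection rule.

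The psah2 group held 6 samples of a mutant that the labels describe as without the photosystem I protein PSI-H2, and the WT group held 6 samples. Both were in ecotype Columbia 0, and total RNA of each sample was measured on its own single-colour array. The labels do not state the kind of mutation, the tissue, age or growth conditions, or the plants behind each sample, so the p-values speak only of how far these samples spread, and that spread can be technical. None of the 8 leaf, root and seed markers looked for had a probe of its own, and neither PSAH2 nor its close copy PSAH-1 was listed for any probe, so neither the tissue nor the mutation was checked by a transcript.

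Plastids make part of their own proteins, among them core proteins of the photosystems, on ribosomes of bacterial type. Some proteins of these ribosomes are encoded in the plastid genome, and the others are encoded in the nucleus, made in the cytosol and imported. The work of plastid ribosomes thus needs nuclear and plastid genes together, and many mutants that lose a nuclear-encoded protein of this kind are pale or die as embryos.

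The deposited values are intensities on a linear scale that ends at 100 and does not go below 0. The psah2 arrays were dimmer over most probes, with array medians from 0.0904 to 0.0995, against 0.304 to 0.379 on WT arrays. Of all probes, 20.1% to 22.5% were listed at 0 on a psah2 array and 13.0% to 13.7% on a WT array. Values were therefore quantile-normalized on the log2 scale for the test, with values at 0 left missing, and probes with fewer than 4 values above 0 in either group were not tested. Of 2643 tested probes, 61.5% passed an adjusted p of 0.05 (limma, Benjamini-Hochberg), 25.2% as higher and 36.2% as lower in psah2. This was 667 higher and 958 lower, and the values as deposited gave 251 higher (9.5%) and 2049 lower (77.5%). With arrays centred on their medians 27.7% were higher and 31.2% lower. A call is therefore common on these arrays, and the calls below are read against these shares.

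The probes of RPL17, RPL5 and RPL29, of the large subunit, were above 0 on all 12 arrays and differed in direction after quantile normalization. RPL17 and RPL5 were higher and RPL29 was lower in psah2, each at an adjusted p below 0.05, while neither small-subunit probe had enough values above 0 to be tested. The RPL29 call was lost with arrays centred on their medians (adjusted p = 0.170), and the RPL5 call was lost in the values as deposited (adjusted p = 0.512). The median log2 change of these 3 members, 1.05, is RPL5's own value and hides their opposite signs, against -0.26 over all 2643 tested probes. Fewer cells of a type and less RNA per cell cannot be told apart in these samples.

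RPL17 is a protein of the large subunit which, in bacteria, lies near the mouth of the tunnel through which the new protein chain leaves. Its deposited intensity was 1.22, 1.68, 1.37, 1.35, 1.18 and 1.18 on psah2 replicates 1 to 6, against 0.608, 0.586, 0.536, 0.556, 0.483 and 0.498 on WT replicates 1 to 6. Every psah2 array stood above every WT array, as it did for 5.93% of all probes. The mean was 1.33 ± 0.19 in psah2 and 0.545 ± 0.049 in WT (SD, n = 6 each), a 2.44-fold higher intensity as deposited. Any scaling done before deposit is not known. After normalization the RPL17 change was 4.14-fold (log2 change 2.05, SE 0.09, n = 6 each, limma, adjusted p = 2.15e-09). Of the 2643 tested probes, 112 had a higher log2 change than RPL17.

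RPL5 binds the small ribosomal RNA of the large subunit in bacteria and helps to form the subunit's central protuberance. Its deposited intensity was 0.395, 0.428, 0.418, 0.601, 0.290 and 0.292 on psah2 replicates 1 to 6, against 0.509, 0.507, 0.406, 0.395, 0.376 and 0.394 on WT replicates 1 to 6. The groups overlapped, with psah2 replicate 4 the highest of all 12 arrays and psah2 replicates 5 and 6 the lowest. The mean intensity was 0.404 ± 0.114 in psah2 and 0.431 ± 0.060 in WT (SD, n = 6 each). On the log2 scale of the deposited values the difference was -0.13 with a 95% interval from -0.52 to 0.27 (limma, n = 6 each, adjusted p = 0.512). After normalization RPL5 was 2.07-fold higher in psah2 (log2 change 1.05, SE 0.13, limma, adjusted p = 1.43e-05). The RPL5 rise thus stands against the rest of the array and is not a rise of the deposited signal.

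RPL29 also sits near the tunnel mouth of the large subunit in bacteria. Its deposited intensity was 0.609, 0.751, 0.512, 0.731, 0.584 and 0.754 on psah2 replicates 1 to 6, against 2.17, 2.10, 2.32, 1.77, 1.94 and 1.86 on WT replicates 1 to 6. Every psah2 array stood below every WT array, which was also the case for 57.3% of all probes. The mean was 0.657 ± 0.102 in psah2 and 2.03 ± 0.21 in WT (SD, n = 6 each). After normalization RPL29 was 2.35-fold lower in psah2 (log2 change -1.23, SE 0.12, n = 6 each, limma, adjusted p = 2.24e-06). With arrays centred on their medians it was -0.21 with a 95% interval from -0.48 to 0.07 and did not pass the test (limma, adjusted p = 0.170).

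**Figure D1:**
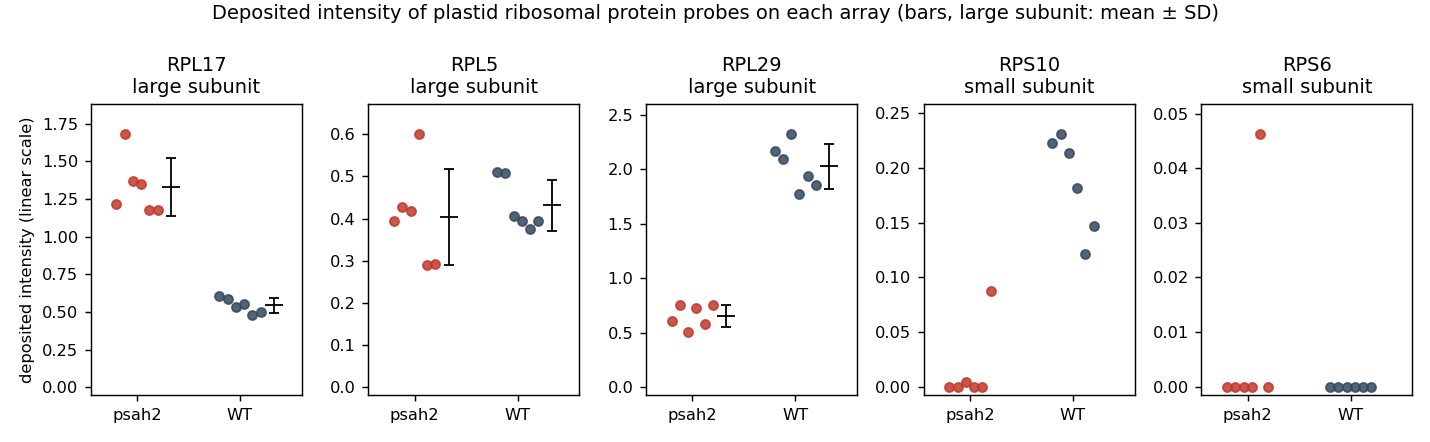
Deposited intensity (linear scale, a separate axis for each gene) of the 5 plastid ribosomal protein probes on the 6 psah2 and 6 WT arrays; each point is an array and the bars of the large-subunit genes are the mean ± SD. The psah2 arrays lie above the WT arrays for RPL17 and below them for RPL29 and RPS10, the groups overlap for RPL5, and RPS6 is at 0 on all arrays but psah2 replicate 5.

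**Figure D2:**
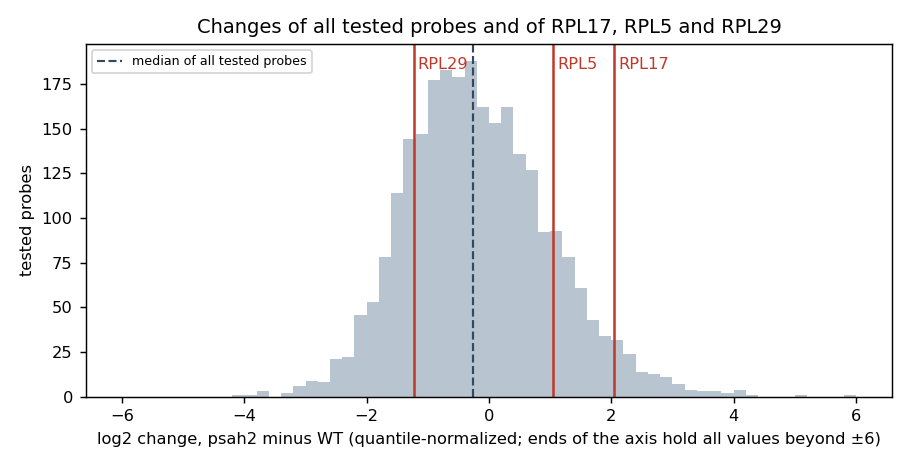
Distribution of the log2 change (psah2 minus WT, quantile-normalized) over the 2643 tested probes, with the 3 tested large-subunit genes as solid lines and the median of all tested probes, at -0.26, as a dashed line. RPL17 at 2.05 lies in the upper tail, RPL5 at 1.05 on the upper and RPL29 at -1.23 on the lower flank.

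How much each of these genes moved depended on the scaling, since the median log2 change of all tested probes was -0.26 after quantile normalization and -1.64 in the values as deposited. Set against that median, RPL17 was 4.96-fold higher after quantile normalization and 7.56-fold higher in the deposited values. RPL17 also passed the test in the same direction in both, at a log2 change of 1.28 as deposited (SE 0.12, limma, adjusted p = 8.31e-07), and with arrays centred on their medians. Of the tested probes, 9.23% were higher in psah2 under all of these 3 scalings, near the 9.5% that were higher as deposited alone.

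Against the same median RPL5 was 2.48-fold higher after quantile normalization and 2.85-fold higher in the deposited values. RPL29 had a log2 change of -1.63 as deposited (SE 0.13), which differed from the median of all probes by 0.002. Centring arrays on their medians shifts all probes of an array alike. It gave the same difference from the median probe and is no separate result. The RPL29 difference as deposited was thus as large as that of the median probe. Of the 4 scalings, quantile normalization and cyclic loess (log2 change -1.05, SE 0.13, limma, adjusted p = 1.88e-05), which act on the whole range of intensities, placed RPL29 below the median probe.

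**Figure D3:**
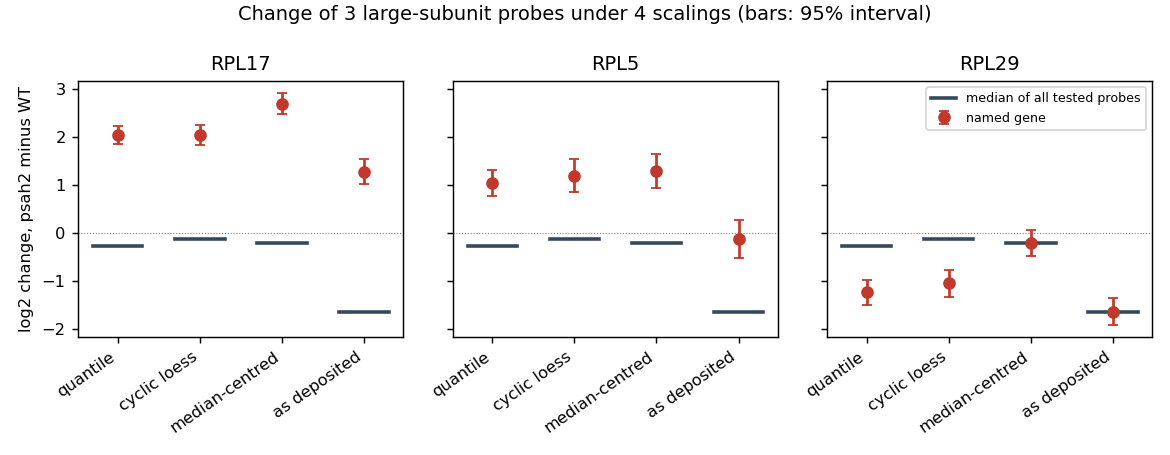
Log2 change (psah2 minus WT) of RPL17, RPL5 and RPL29 with its 95% interval under 4 scalings of the arrays; the dark bar is the median change of all tested probes under the same scaling. RPL17 and RPL5 lie above the bar under all 4 scalings, and RPL29 lies on it with median-centred and deposited values and below it with the other scalings. Median centring shifts all probes of an array alike, so the distance from the bar is the same as with deposited values.

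A ratio of 2 probes on the same array does not change when the whole array is scaled by a factor. It thus shows unequal change of a pair in the deposited values, without the normalization used here, although not which probe moved. The ratio itself does not compare transcript amounts, since probes differ in brightness. The 3 pairs of large-subunit genes were compared in this way, each with an exact permutation test over arrays (2-sided, smallest possible p 0.00216). The ratio of RPL17 to RPL29 lay between 1.57 and 2.68 on psah2 arrays, against 0.231 to 0.314 on WT arrays, a 7.54-fold change (log2 2.92, exact p = 0.00216, n = 6 each). That of RPL17 to RPL5 lay between 2.25 and 4.05 on psah2 arrays, against 1.16 to 1.41 on WT arrays, a 2.66-fold change (log2 1.41, exact p = 0.00216, n = 6 each). That of RPL5 to RPL29 lay between 0.388 and 0.822 on psah2 arrays, against 0.175 to 0.242 on WT arrays, a 2.84-fold change (log2 1.51, exact p = 0.00216, n = 6 each). All 3 pairs had groups that did not overlap. These p-values take the 6 arrays of a group as separate samples, although arrays of consecutive numbers resembled each other, with a median correlation of 0.868 in psah2 and 0.967 in WT, against 0.828 and 0.946 between other arrays of the same group. Averaging them leaves 3 arrays against 3, where the test cannot go below 0.1, and each of the 3 ratio changes reached that value at the same size. A scaling that acts unequally over the range of intensities does alter these ratios. In quantile-normalized values the log2 change was 3.28 for RPL17 to RPL29, 0.999 for RPL17 to RPL5 and 2.29 for RPL5 to RPL29. The direction of each change thus held, but its size depended on the scaling.

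Unequal change of a pair was also common on these arrays. Over all pairs of probes above 0 on all 12 arrays, 45.3% had ratios that did not overlap between the groups. A change at least as large as that of RPL17 to RPL29 was found in 11.8% of these pairs, as large as that of RPL17 to RPL5 in 42.7%, and as large as that of RPL5 to RPL29 in 39.7%.

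**Figure D4:**
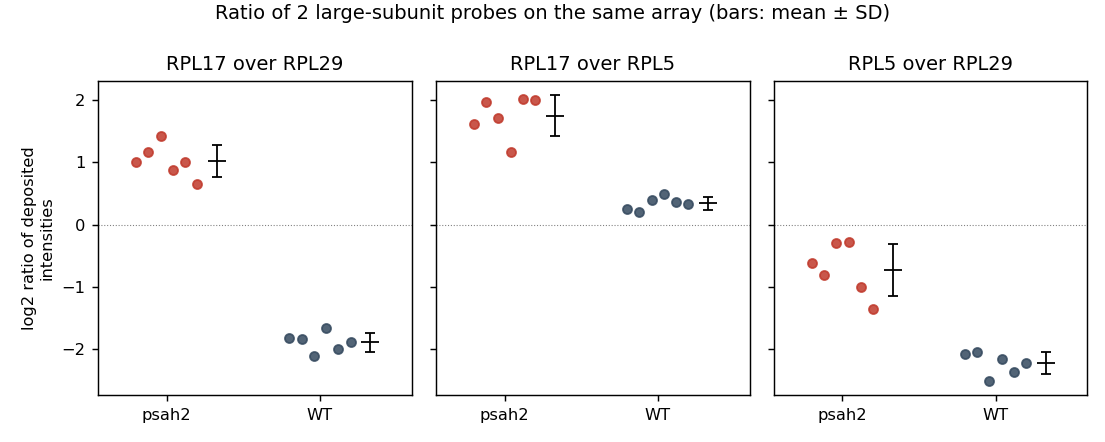
Log2 ratio of the deposited intensities of 2 large-subunit probes on each of the 6 psah2 and 6 WT arrays; points are arrays and bars the mean ± SD. The psah2 arrays lie above the WT arrays for all 3 pairs, with the widest gap for RPL17 over RPL29.

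The small-subunit probes were near or at the bottom of the scale. RPS10, which in bacteria sits in the head of the small subunit, had intensities of 0, 0, 0.00494, 0, 0 and 0.0873 on psah2 replicates 1 to 6, against 0.222, 0.231, 0.213, 0.181, 0.121 and 0.147 on WT replicates 1 to 6. All psah2 arrays were below all WT arrays, as for 57.3% of all probes. RPS10 was listed at 0 on 4 of 6 psah2 arrays and on 0 of 6 WT arrays (Fisher's exact test, 2-sided, p = 0.0606), a difference that did not pass 0.05. Of all probes, 5.32% were above 0 on every WT array and at 0 on at least 4 psah2 arrays, as RPS10 was.

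RPS6, which in bacteria binds the platform of the small subunit, was listed at 0 on 5 of 6 psah2 arrays and on 6 of 6 WT arrays (Fisher's exact test, p = 1). The single value above 0 was 0.0463 on psah2 replicate 5. Of all probes, 7.76% were at 0 on all WT arrays and on at least 5 psah2 arrays, and 23.1% had too many values at 0 for the test. A value of 0 may be a failed estimate, so the probe gave no usable level of RPS6 in either group.

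Among the members, RPL17, RPL5 and RPL29 had no value at 0 on any of the 12 arrays, RPS10 had 4 and RPS6 had 11. This does not divide the 2 subunits, since the large-subunit probe of RPL34, which is no member, was at 0 on 5 of 6 psah2 arrays and on 1 of 6 WT arrays. The change of the 2 subunits was not compared in the normalized fit, where 3 of 3 large-subunit and 0 of 2 small-subunit members were tested.

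The position of a probe on its array, the percentage of the 3439 probes with a lower value, uses the values at 0 and needs no scaling. It draws on the same order of values as quantile normalization and is no separate support for it. RPL17 stood at 93.1% ± 0.6 on psah2 and 67.9% ± 0.8 on WT arrays, RPL5 at 81.0% ± 3.7 on psah2 and 59.2% ± 2.0 on WT arrays, and RPL29 at 87.8% ± 1.8 on psah2 and 94.4% ± 0.6 on WT arrays (SD, n = 6 each). Each of these 3 differences had the smallest p the exact permutation test allows, and an adjusted p of 0.00596 over all 3439 probes. With consecutive arrays averaged each again had the smallest p possible, which is then 0.1. By this test 22.2% of all probes were higher and 26.8% lower in psah2.

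RPS10 stood at 0% on psah2 replicates 1, 2, 4 and 5, at 24.0% on psah2 replicate 3 and at 46.7% on psah2 replicate 6, against 23.9% to 33.8% on WT arrays. The position on psah2 replicate 6 was thus above that on all WT arrays, although the intensity was lower. Of all probes, 20.1% to 22.5% were at 0 on a psah2 array and 13.0% to 13.7% on a WT array. A value just above 0 thus stood higher on psah2 arrays, and positions near the bottom do not compare directly between the groups. The difference of the mean positions was -18.2 percentage points and did not pass the test (exact permutation test, p = 0.0498, adjusted p = 0.0940). Without psah2 replicate 6 it was -25.2 points and passed (adjusted p = 0.0107), so that this 1 array decided the call. For RPS6 the difference was 5.77 points (exact permutation test, p = 1).

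**Figure D5:**
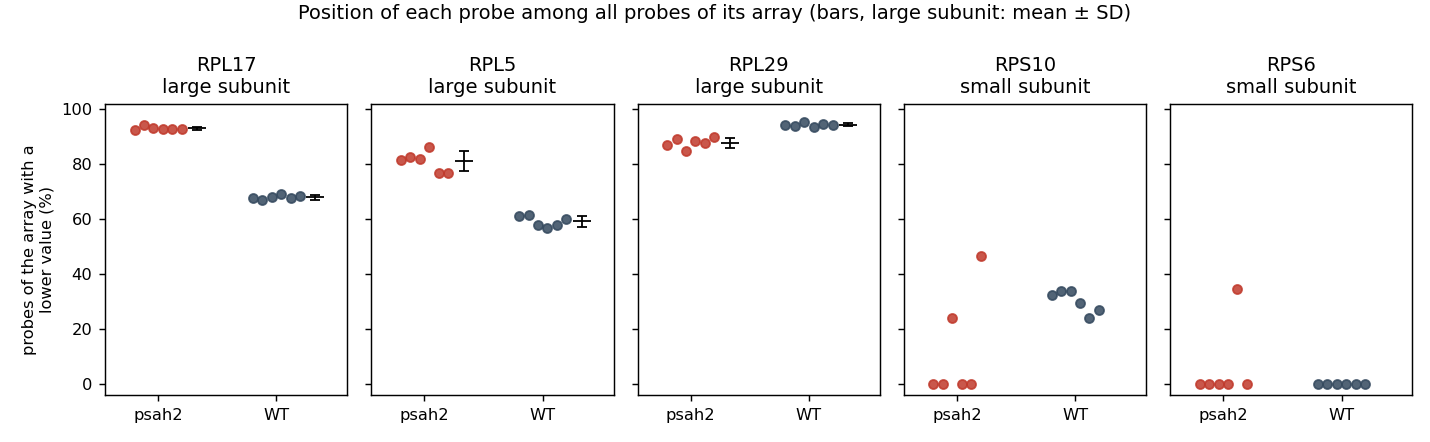
Position of each plastid ribosomal protein probe on its array, as the percentage of the 3439 probes with a lower value, on the 6 psah2 and 6 WT arrays; points are arrays and the bars of the large-subunit genes are the mean ± SD. RPL17 and RPL5 lie higher and RPL29 lies lower on psah2 arrays, RPS10 spreads from 0% to 46.7% on psah2 arrays, and RPS6 is at 0% on all arrays but psah2 replicate 5.

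Among themselves the 3 large-subunit probes also differed in spread. On psah2 arrays the coefficient of variation of the deposited intensity was 14.4% for RPL17, 28.2% for RPL5 and 15.6% for RPL29, against 8.96%, 14.0% and 10.2% on WT arrays. RPL5 was the most variable of the 3 in both groups. The mean deposited RPL5 intensity differed by -0.0272 between psah2 and WT, less than the SD of either group.

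Of 41 nuclear genes listed for plastid ribosomal proteins, 6 had a probe of their own, 2 of 14 for the small and 4 of 27 for the large subunit. The gene beyond the members was RPL34 (AT1G29070), a small protein of the large subunit. RPL34 was at 0 on psah2 replicates 1 to 5 and at 0.0209 on psah2 replicate 6, against 0.0382, 0.0921, 0, 0.0911, 0.112 and 0.137 on WT replicates 1 to 6. The difference in values at 0 did not pass 0.05 (Fisher's exact test, 2-sided, p = 0.0801), and RPL34 was too often at 0 for the normalized fit. Both RPL34 and RPS10 had their highest psah2 value on psah2 replicate 6, as did RPL29 as deposited (0.754), while RPL17, RPL5 and RPS6 did not. This array also had the highest median of the psah2 arrays (0.0995). Of the 41 genes 3 were tested, and 2 passed as higher and 1 as lower in psah2. Over all 2643 tested probes 25.2% passed as higher and 36.2% as lower, so such calls were common. With 35 of the 41 genes not measured by a probe of their own, the 3 calls do not stand for the ribosome.

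Related steps of plastid gene expression were not measured here. None of 67 further genes, for translation factors, ribosome assembly, tRNA ligases, transcription and the ribosomal proteins encoded in the plastid, had a probe of its own. All 67 were found in the RefSeq table, the 21 encoded in the plastid by their symbols, and 0 probes were annotated with any gene of the plastid genome. The 4 probes with several genes that held a translation factor gene were not used. Cytosolic and mitochondrial ribosomal proteins were not analysed here.

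The genes closest in pattern to each tested member were looked up. Likeness was taken as the root mean square difference of the normalized log2 values over the 12 arrays, each gene centred on its own mean, among 419 other probes with 1 gene. The closest to RPL17 were AT3G09050 (difference 0.174) and PRK (AT1G32060), the Calvin-Benson cycle enzyme phosphoribulokinase (0.179). Of these 419 probes RPL5 was the 40th closest to RPL17 (0.537) and RPL29 the 309th (1.65). PRK had a mean deposited intensity of 6.96 ± 0.58 in psah2 and 1.59 ± 0.14 in WT, and AT3G09050 of 1.90 ± 0.39 in psah2 and 0.664 ± 0.083 in WT (SD, n = 6 each).

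The closest to RPL5 were AT2G46630 (0.162) and AT5G50350 (0.182), and the closest to RPL29 were AT2G19280 (0.177) and AT3G46950 (0.200). RPL17 was the 93rd closest to RPL5 and the 402nd to RPL29. The measure takes in the difference between the groups, which these neighbours share with the member by construction. That the closest of many probes lay nearer than another member is thus no separate result.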

How the data were processed

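Members and gene lists were chosen with earlier results of these data known. The authors deposited 1 table of intensity values per array for 12 arrays. Background correction, scaling and scanner are not given in the sources used here. Groups and replicate numbers came from the sample titles, and all 12 columns were used.

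Probes were named from the platform annotation, matched to RefSeq genes of assembly TAIR10.1 by gene ID. Of 3439 probes 692 had 1 gene, 870 several and 1877 none listed, and 690 of the 692 matched a locus. The genome build of the probe annotation is unknown, so positions are left out. No probe, gene or protein sequence was used.

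Array medians differed by more than 5%, so intensities were log2-transformed with values at 0 missing and quantile-normalized. They were compared by limma 3.58.1 (lmFit and eBayes, R 4.3.3), with 2-sided p-values adjusted after Benjamini-Hochberg over 2643 tested probes. The other 796 probes had too few values. A true difference in total signal is lost in quantile normalization. Fold changes come from normalized log2 values, while printed intensities are as deposited. Positions and ratios were tested by exact permutation of arrays (924 divisions, Python 3.11.15, scipy 1.17.1). The fit and the permutation test were tested on simulated data with independent arrays of equal scaling. The likeness of consecutive arrays and the scaling difference of the groups were not simulated. The number of arrays limits the precision. All members were named, with RPL34 as the only other listed gene with a probe, and the 2 closest patterns of each tested member. Alternatives were other scalings, filters, priors, weights, averaged or blocked replicates and each array left out.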

Additional observations from a re-analysis of the deposited data

Results flagged for a closer look

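In 3 of 16 groups of 6 arrays 1 array stood apart from the other 5 by a gap test on the members' deposited or normalized values, which chance passes in about 1 of 20 groups. The 16 groups were not separate, since some members entered with both kinds of value on the same arrays. For RPL17, psah2 replicate 2 was above the others after normalization (gap over range 0.635, log2 intensity 0.75 against 0.41 to 0.54), and without this array the log2 change was 1.96. For RPS10, psah2 replicate 6 was above the others in deposited intensity (0.943, 0.0873 against 0 to 0.00494). For RPS6, psah2 replicate 5 was the single array above 0 (gap over range 1, intensity 0.0463). The probes of RPS10 and RPS6 were at 0 on most psah2 arrays, where a single value above 0 passes a gap test.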

How the results depend on the processing

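RPL17 kept its direction and call under all 23 alternatives, with log2 changes from 1.28 to 2.71. RPL5 did so under 22 of 23; it turned to -0.13 in the values as deposited (adjusted p = 0.512), where the median of all probes was -1.64. RPL29 did so under 22 of 23, and was -0.21 with arrays centred on their medians (limma, adjusted p = 0.170). Filters on values above 0, blocked or averaged replicates and other priors left these log2 changes as they were, so only the call could alter there. The counts of 667 higher and 958 lower probes became 251 and 2049 as deposited. Leaving out 1 array gave 620 to 659 higher and 873 to 926 lower probes, and log2 changes of 1.96 to 2.11 for RPL17, 0.95 to 1.10 for RPL5 and -1.30 to -1.14 for RPL29. The position of RPS10 differed by -25.2 to -15.9 points when 1 array was left out, and by 5.35 points over arrays above 0 only (exact permutation p = 0.393), where just 2 psah2 arrays remain. That of RPS6 differed by 0 to 6.92 points, with 0 without psah2 replicate 5; it gave no value over arrays above 0 only, since no WT array is. RPS10 entered the fit in other settings: with values at 0 set to a floor its log2 change was -6.43 (limma, adjusted p = 0.0247), a size set by the floor, and with at least 2 values in each group it was -0.95 (SE 0.73, adjusted p = 0.292).

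With the replicate number as a replicate block 654 probes were higher and 938 lower, and RPL17 (adjusted p = 1.36e-05), RPL5 (0.000557) and RPL29 (0.000349) kept their calls. The ratio changes of 2.92, 1.41 and 1.51 had an exact sign-flip p = 0.0312 each over same-numbered arrays, the smallest possible. In quantile-normalized values these ratio changes were 3.28, 0.999 and 2.29. Same-numbered arrays deviated together with correlations of 0.05 to 0.15, over 0.1 for 4 of 6 numbers, against at most 0.05 between other numbers, and 12 of 12 arrays correlated best with their own number. That is a hint of pairing from the data, not the design, and the numbers were not taken as pairs. With consecutive replicates averaged, the calls were kept at adjusted p = 0.000604 for RPL17, 0.00772 for RPL5 and 0.00249 for RPL29. The same averaging of the ratios and positions was chosen after seeing the data: the ratio changes stayed at 2.92, 1.41 and 1.51, and the positions of RPL17, RPL5 and RPL29 at 25.2, 21.8 and -6.61 points, each at p = 0.1, the smallest possible for 3 against 3 (exact permutation test). Low signal limits RPS10, RPS6 and RPL34.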

Other observations

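Arrays with consecutive replicate numbers (1 and 2, 3 and 4, 5 and 6) resembled each other over all probes, with a median correlation of 0.868 in psah2 and 0.967 in WT, against 0.828 and 0.946 between other arrays of the group, and gave closer values for some members. For RPL5 the mean absolute log2 difference of the deposited intensity was 0.216 within such pairs and 0.527 between other arrays of psah2, and 0.0375 and 0.268 in WT. For RPL17 it was 0.164 and 0.240 in psah2, and 0.0495 and 0.189 in WT. For RPL29 it was 0.395 within such pairs and 0.247 between other psah2 arrays, and 0.168 and 0.186 in WT. The labels do not say what consecutive numbers share, and these differences were not tested.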
